A study of Mus musculus with 2 samples.

Results

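Mature neutrophils with little chemokine transcript were described in single-cell RNA-seq libraries of mouse fracture callus. They were chosen from measured values of the same matrices, barcode by barcode, so the genes of the rule are a description of the choice and not a result. Per 10000 UMIs of a barcode (UMI, unique molecular identifier, 1 count per captured RNA molecule), a member held at least 100 UMIs of S100a8 and S100a9 together, under 50 of Ccl3, Ccl4 and Cxcl2, under 20 of Camp, Ngp and Ltf, under 10 of C1qa, C1qb and C1qc, and under 10 of Acan. It also held at least 1 UMI of Csf3r or Cxcr2 and 0 of Csf1r. Of 21266 barcodes with at least 200 genes and at most 20% mitochondrial UMIs, 391 met the rule, which were 108 of 13460 in the MGJ library and 283 of 7806 in the MGJ2 library. These were 0.802% (exact binomial 95% interval 0.659 to 0.968) and 3.63% (3.22 to 4.06) of the barcodes kept.

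Both libraries came from callus, the repair tissue around a broken bone, of wild-type (wt) C57BL/6J mice with a femoral fracture, digested with enzymes and captured with 10x Genomics 3′ chemistry. The design named calluses at 10 days (5 mice) and at 20 days (5 mice) after fracture, but no label places MGJ or MGJ2 on a day, and mice cannot be separated within a library. The libraries are therefore set side by side, without a comparison of days, a test or a mean across them. Intervals below are exact 95% intervals that cover counting error only, because cells of 1 library are not replicates of a condition.

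Neutrophils are made in the bone marrow in steps. Progenitors fill primary (azurophil) granules with proteins such as Mpo and Elane, later stages fill secondary granules with Camp, Ngp and Ltf and then gelatinase granules with Mmp8 and Mmp9, and the mature cell loses these transcripts while it gains the chemokine receptor Cxcr2 and the granulocyte colony-stimulating factor receptor Csf3r. In inflamed tissue, neutrophils transcribe chemokines such as Ccl3, Ccl4 and Cxcl2 and interleukin 1 genes, largely through the transcription factor NF-kappaB. Barcodes that met the other gates but held at least 50 chemokine UMIs per 10000 are called chemokine-activated here, and those with at least 20 UMIs of Camp, Ngp and Ltf per 10000 but under 50 of the chemokines are called granule-rich.

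MGJ held 14295 barcodes and MGJ2 8009, of which the kept ones summed to 133863477 and 60719816 UMIs, and 19 barcode sequences occurred in both, none of them a member. Members were shallow, with a median of 1969.5 UMIs in MGJ and 2579 in MGJ2, against 5706 and 5116 over all kept barcodes. Chemokine-activated barcodes numbered 1494 and 822, with a similar median depth of 1952 and 2332 UMIs. Granule-rich barcodes numbered 317 and 576 and were deeper, at 6265 and 7816 UMIs. Scrublet, a caller of barcodes that hold more than 1 cell, marked 1 of the 108 members in MGJ and 17 of the 283 in MGJ2. These were 0.926% and 6.01% of members, against 1.04% and 2.84% of all kept barcodes. The share was 0.402% and 1.58% of chemokine-activated and 0% and 1.22% of granule-rich barcodes. In MGJ2 members were thus marked more often than either other gate. How many marked members passed the screen described below is not given.

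The threshold on the chemokine sum passed through a continuous range of values. In MGJ, 17 barcodes that met every other gate held 40 to 50 chemokine UMIs per 10000 and 16 held 50 to 60, and in MGJ2 the numbers were 49 and 46. Just inside this threshold, Il1b stood at 1748 CPM (UMI counts of the gene per 1000000 UMIs summed over the barcodes) in MGJ and 2674 in MGJ2, and just outside it at 1109 and 2399. Retnlg stood at 6248 and 8453 inside and at 15316 and 8574 outside. The members are thus the low end of a range, and no gap set them apart. Only 11 of 108 and 23 of 283 members held no UMI of the 3 chemokines, and the median sum was 22.8 and 24.3 per 10000, so these neutrophils were low in chemokine transcripts and not free of them. The granule threshold lay in a thinner region, with 10 barcodes at 10 to 20 and 8 at 20 to 30 in MGJ, and 20 and 18 in MGJ2.

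**Figure D1:**
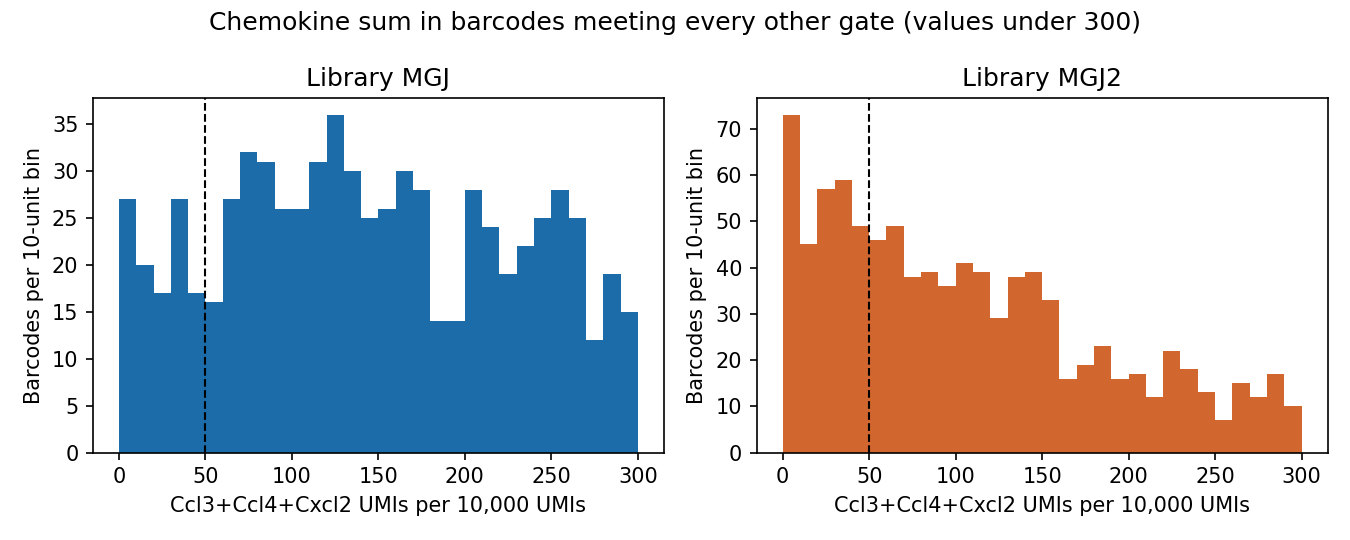
Histograms of the summed Ccl3, Ccl4 and Cxcl2 UMIs per 10000 UMIs (x axis) in barcodes that met every other gate, as barcodes per 10-unit bin (y axis), in libraries MGJ and MGJ2. The dashed line is the threshold of 50, and no gap in the values is seen on either side of it.

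Chemokine UMIs were also counted in barcodes of other cell classes, and whether those cells transcribe the chemokines themselves was not tested. Barcodes with B cell transcripts (Cd79a and Cd79b) and few S100a8 and S100a9 held Cxcl2 at 3219 in MGJ and 400.4 in MGJ2 (CPM), against 1516 and 1259 in members. These pooled levels rested in part on single barcodes, since Cxcl2 in B-cell barcodes of MGJ had a median of 2.43 and a highest value of 744 per 10000. By barcode, the median Cxcl2 was 15.9 per 10000 in members of MGJ, above the 90th percentile of its B-cell barcodes (13.1). In MGJ2 the median was 19.8 in members and 0 in B-cell barcodes. Cartilage-matrix barcodes, with at least 10 Acan UMIs per 10000 and few S100a8 and S100a9, had a median Cxcl2 of 4.07 in MGJ and 0.292 in MGJ2. Their 90th percentile was 54.0 in MGJ, above the median of members, and 2.36 in MGJ2. Col2a1, a collagen of cartilage, stood at 2478 in MGJ and 59.3 in MGJ2 in the same B-cell barcodes. Free RNA in the suspension was not removed from any value, and its part in the low chemokine counts of members was not tested.

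Some members carried transcripts of other cell classes or of earlier neutrophil stages. In MGJ 18 members and in MGJ2 24 members held at least 50 UMIs per 10000 of azurophil genes or of the markers of another cell class, and a further 3 and 5 held 8000 UMIs or more. These 21 and 29 barcodes had median depths of 15723 and 12862 UMIs and took 61.4% and 47.2% of all member UMIs. In MGJ, 9 of them passed the limit for fibroblast and osteoblast markers, 5 for chondrocyte markers and 3 for azurophil genes, and in MGJ2, 15 passed it for azurophil genes, 5 for dendritic cell markers and 4 for B cell markers. A summed level over all members is in large part a level of these barcodes. The screen was chosen after the values had been seen. Values below are for the 87 and 254 members without them, called retained members, and the other gates were screened with the same markers, the chemokine-activated gate for azurophil genes and depth as well. The granule-rich gate kept its deep barcodes and its azurophil genes. Values over all members are added for the main genes.

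**Figure D2:**
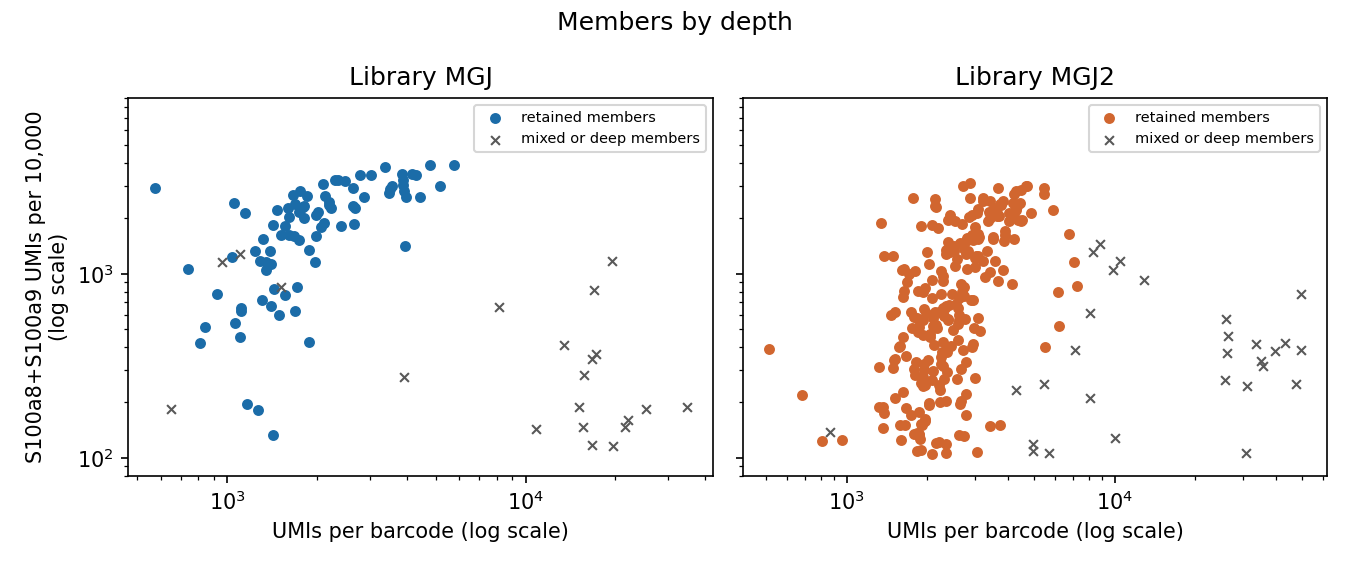
Each point is a member, by its UMIs (x axis, log scale) and its S100a8 and S100a9 UMIs per 10000 (y axis, log scale), in MGJ (left) and MGJ2 (right). Crosses are the 21 and 29 members with azurophil genes, markers of other classes or at least 8000 UMIs. Most of them lie to the right of the retained members.

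The calcium-binding alarmins S100a8 and S100a9, which the rule required, made up 23.2% of the UMIs of retained members in MGJ and 11.8% in MGJ2. S100a8 stood at 106736 and 61852 CPM and S100a9 at 125411 and 56490.1. Among the receptors, Csf3r stood at 717 and 909 and Cxcr2 at 498 and 1037. Il1r2, the decoy receptor for interleukin 1 (chr1:40074079-40125231, plus strand, in GENCODE M21 on GRCm38), was the 1 marker given for these cells that the rule did not use. It stood at 1033 CPM in MGJ (95% interval 892 to 1189) and 1218 in MGJ2 (1137 to 1304). In all other kept barcodes Il1r2 was at 84.3 and 163, and in B-cell barcodes at 47.1 and 20.0. After each barcode was thinned to 1000 UMIs, retained members with an Il1r2 UMI numbered 41 of 82 (interval 38.7 to 61.3) in MGJ and 135 of 250 (54.0%, 47.6 to 60.3) in MGJ2. The share was 1.43% and 1.76% in B-cell barcodes, whose median depths were 1940.5 and 3298 UMIs against 1793 and 2398 in retained members. Without thinning, the shares were 75.9% and 81.1% in retained members and 3.82% and 5.25% in B-cell barcodes. Il1r2 was thus present in retained members well above the share in B-cell barcodes. By barcode, Il1r2 ranged from 0 to 75.8 per 10000 in MGJ, with a median of 6.83, and from 0 to 106 in MGJ2, with a median of 8.64.

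Every marker list of another cell type except that of osteoclasts summed to less in retained members than in all other kept barcodes of both libraries, for the screened lists in part by construction. Osteoclast markers summed to 423 and 574 CPM against 478 and 497, and 77 of 79 and 378 of 391 of these UMIs were of Mmp9, a gelatinase that neutrophils express too. Macrophage and monocyte markers, on which no barcode was screened, summed to 733 and 836 CPM over 13 genes, of which 9 had a UMI in each library, against 2528 and 2064 in all other barcodes. Chondrocyte markers summed to 1600.0 and 232, with all 10 genes present in both libraries. Platelet markers were at 0 in both libraries, and eosinophil markers held 0 UMIs in MGJ and 11 in MGJ2. Mki67, a gene of dividing cells, had 0 UMIs in retained members of MGJ and 2 in MGJ2. These counts follow the screen on depth and azurophil genes.

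Against all other kept barcodes, the genes with the highest ratio in both libraries included many known from mature neutrophils. Cxcr2, which is in the rule, led with 36.0 and 15.6 times the level elsewhere in MGJ and MGJ2. It was followed by Stfa2l1 (15.5 and 14.7), Cstdc4 (13.9 and 15.2) and Stfa1 (27.7 and 12.6), genes of the stefin family of cysteine protease inhibitors, whose near-identical copies can share reads. The list also held the long noncoding RNA Mirt2, the G-CSF receptor Csf3r of the rule, the leukotriene-degrading enzyme Cyp4f18 (11.3 and 9.93), the ectonucleotidase Entpd1 (14.2 and 8.64), the formyl peptide receptor Fpr1 (8.52 and 8.94) and the inhibitory receptors Cd33 and Cd300lf (10.1 and 8.11). Rdh12, Asprv1, Sh2d3c and A530064D06Rik completed the leading 15. The 5 lowest ratios were those of Ecrg4, the matrix proteoglycan Fmod, the collagen-modifying enzyme Plod2, the collagen Col1a2 and Camp of the rule, all at or below 0.0265 of the level elsewhere. Over all 108 and 283 members, by contrast, the azurophil genes Elane, Prtn3, Ms4a3, Ctsg and Mpo were among the 15 leading genes. In retained members Elane held 1 UMI in MGJ and 2 in MGJ2, which the screen on azurophil genes fixed in part.

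The comparison with chemokine-activated neutrophils describes what went along with a low chemokine sum. In both libraries the late granule genes Retnlg, Mmp8 and Cd177 stood at least 2-fold higher in retained members, and Il1a, Il1rn and 4 NF-kappaB feedback genes at least 2-fold lower. These sizes belong to retained members, left by a screen chosen after the values had been seen. Over all members Mmp8 stood lower than in retained members, and all-member ratios of these granule genes to chemokine-activated barcodes are not given here. The main gene of this comparison was Il1b (chr2:129364570-129371139, minus strand), the inflammatory cytokine interleukin 1 beta. It stood at 924 and 1419.9 CPM over all members and at 4198 and 4707 in all chemokine-activated barcodes, a ratio of 0.220 (95% interval 0.200 to 0.242) in MGJ and 0.302 (0.287 to 0.317) in MGJ2. In retained members Il1b was at 1375 CPM in MGJ (95% interval 1212 to 1554) and 2530.1 in MGJ2 (2412 to 2653), and the ratio to screened chemokine-activated barcodes was 0.311 (95% interval 0.274 to 0.352) in MGJ and 0.521 (0.495 to 0.548) in MGJ2. The level was lower than in chemokine-activated barcodes either way, but Il1b was not absent: with barcodes thinned to 1000 UMIs, the retained members with an Il1b UMI numbered 43 of 82 (52.4%, interval 41.1 to 63.6) in MGJ and 168 of 250 (67.2%, 61.0 to 73.0) in MGJ2. An Il1b UMI was found in 78.7% and 80.4% of chemokine-activated and in 6.09% and 6.05% of B-cell barcodes. The unthinned shares of Il1b were 66.7% and 80.3%, 87.7% and 90.2% and 12.8% and 16.5%, in the same order.

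Of all genes with at least 50 UMIs in the 2 gates together, 6.53% were at least 2-fold higher in retained members and 12.6% at least 2-fold lower in MGJ, and 2.85% and 3.56% in MGJ2. The median ratio over all these genes was 0.966 and 1.02. All list counts below use this 2-fold limit of size, without a test, and are to be read against these shares.

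Of 21 cytokines and inflammatory mediators outside the rule, 21 had at least 50 UMIs in MGJ, with 0 higher and 11 lower (median ratio 0.4995), and 19 in MGJ2, with 0 higher and 9 lower (0.521). Il1rn, the antagonist that blocks the interleukin 1 receptor, stood at 1899.6 and 2523 CPM in retained members and 5125 and 5209.7 in chemokine-activated barcodes, ratios of 0.371 (95% interval 0.333 to 0.412) in MGJ and 0.484 (0.460 to 0.510) in MGJ2. Il1a, which encodes interleukin 1 alpha, stood at 21.4 and 49.96 against 617 and 174. Tnf, the tumour necrosis factor gene, had ratios of 0.158 (95% interval 0.103 to 0.233) in MGJ and 0.319 (0.262 to 0.386) in MGJ2. The agonist and the antagonist of the interleukin 1 receptor thus stood lower together. The neutrophil chemoattractant Cxcl3 had ratios of 0.0940 and 0.227, the prostaglandin synthase Ptgs2 of 0.174 and 0.251, and the checkpoint ligand Cd274 of 0.307 and 0.431. Not all mediators followed. The chemokine Ccl6 stood at 808 and 1364 CPM in retained members and 691 and 1184 in chemokine-activated barcodes, and the histamine-forming enzyme Hdc had ratios of 1.16 and 1.02.

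Of 12 NF-kappaB feedback genes, 12 had at least 50 UMIs in MGJ, with 0 higher and 8 lower (median ratio 0.451), and 12 in MGJ2, with 0 higher and 4 lower (0.558). Nfkbia, the inhibitor that holds NF-kappaB in the cytoplasm and is itself an NF-kappaB target, stood at 947 CPM in MGJ (95% interval 813 to 1097) and 1483 in MGJ2 (1392 to 1577) in retained members. Its ratio to chemokine-activated barcodes was 0.375 (95% interval 0.321 to 0.435) in MGJ and 0.477 (0.446 to 0.510) in MGJ2. Nfkbiz, a nuclear cofactor of the same family, had ratios of 0.149 and 0.316, the deubiquitinase gene Tnfaip3 of 0.348 and 0.397, and the stress gene Gadd45b of 0.458 and 0.438. These 4 passed the 2-fold limit in both libraries.

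Promoter stretches are shown for 4 genes picked from those that hold an NF-kappaB motif, GGGANTTTC on either strand, in capitals. Most genes of the 2 lists above do not hold it, and a part of NF-kappaB in their low levels was not tested. The 4 shown are the neutrophil chemoattractants Cxcl1, Cxcl2 and Cxcl3 and the feedback gene Nfkbia, all at least 2-fold lower in retained members of both libraries. Cxcl2 is a gene of the rule. The sequences are from RefSeq on GRCm38.p6, 5′ to 3′ on the gene's strand, and end before the transcription start.
Cxcl1, chr5:90891149-90891207, plus strand: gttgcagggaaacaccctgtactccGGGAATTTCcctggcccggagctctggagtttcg
Cxcl2, chr5:90903777-90903835, plus strand: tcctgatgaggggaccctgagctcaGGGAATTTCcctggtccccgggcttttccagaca
Cxcl3, chr5:90786003-90786061, plus strand: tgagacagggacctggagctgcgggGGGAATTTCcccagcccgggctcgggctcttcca
Nfkbia, chr12:55492648-55492700, minus strand: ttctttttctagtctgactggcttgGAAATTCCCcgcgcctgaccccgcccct
The motif began 71 bases before the start in Cxcl1, 97 in Cxcl2, 73 in Cxcl3 and 28 in Nfkbia, where it lay on the opposite strand. It was found in the 250 bases before the start of 309 of 32851 promoters in the table, or 0.941%, which were promoters of 299 of 27025 genes, or 1.11%. Of the lists, 3 of 15 matched cytokines and mediators (Cxcl1, Cxcl3 and Csf1), 1 of 10 matched NF-kappaB feedback genes and 1 of 14 matched granule genes (Pglyrp1) held it. Of the chemokines of the rule, 1 of 2 matched genes (Cxcl2) held it. A match describes these letters in these windows and no binding.

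Some late granule genes stood the other way. Of 17 specific and gelatinase granule genes outside the rule, 15 had at least 50 UMIs in MGJ, with 7 higher and 1 lower (median ratio 1.76), and 16 in MGJ2, with 4 higher and 0 lower (1.59). Retnlg, a resistin-related protein of mature mouse neutrophils (chr16:48872621-48874496, plus strand), stood at 16079.8 CPM in MGJ (95% interval 15509.9 to 16665) and 12026 in MGJ2 (11767 to 12289.6) in retained members. Its ratio to chemokine-activated barcodes was 4.84 (95% interval 4.65 to 5.04) in MGJ and 2.82 (2.74 to 2.91) in MGJ2. Mmp8, the neutrophil collagenase (chr9:7558456-7568485, plus strand), had ratios of 3.23 (95% interval 2.65 to 3.91) in MGJ and 2.58 (2.30 to 2.89) in MGJ2. Cd177, a surface protein of secondary granules, stood at 144 and 80.8 CPM against 15.96 and 24.8. Lcn2, an iron-siderophore binder, was mixed, with a ratio of 0.621 in MGJ and 1.75 in MGJ2.

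Ranked by the library where the ratio was nearer 1, the 10 genes with the highest ratio to chemokine-activated barcodes included Cd177 and Retnlg beside Ly6g, the antigen used to stain mouse neutrophils (3.17 and 3.49). The others were Nfe2 (2.77 and 3.24), the keratin gene Krt83, the stefin Stfa2, Ly6c2 (2.98 and 2.59), the ectonucleotidase Nt5e (3.42 and 2.58), Tnfaip8l2 and A130014A01Rik. At the other end, Ccl3, Ccl4 and Cxcl2 of the rule were followed by Csf3, Plet1, Il10, Cxcl3, Ptgs2, Lsmem1 and Il1a. Csf3, which encodes granulocyte colony-stimulating factor, stood at 42.8 and 26.4 CPM against 503 and 166. Il10 rested on few UMIs, with 1 UMI in MGJ and 3 in MGJ2.

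Receptor genes were closer to even. Of 13 cytokine receptors, 13 had at least 50 UMIs in MGJ, with 1 higher and 0 lower (median ratio 1.11), and 13 in MGJ2, with 0 higher and 0 lower (1.07). Il1r2 had ratios of 1.15 (95% interval 0.990 to 1.33) in MGJ and 0.836 (0.773 to 0.904) in MGJ2, so it lay on opposite sides of 1 in the libraries, and the interval of MGJ included 1. Over all members the ratio was 0.579 in MGJ and 0.491 in MGJ2, below 1 in both. Of 10 chemoattractant receptors, 10 had at least 50 UMIs in MGJ, with 0 higher and 2 lower (median ratio 0.763), and 9 in MGJ2, with 0 higher and 1 lower (0.887), and Ccrl2, a nonsignalling receptor induced in inflammation, was the 1 gene lower in both (0.225 and 0.329). Cxcr4, the receptor that retains neutrophils in marrow, stood at 401 and 2006 CPM in retained members and at 281 and 1537 in chemokine-activated barcodes. Among 16 Fc and pattern receptors, 14 had at least 50 UMIs in MGJ, with 1 higher and 1 lower (median ratio 0.877), and 14 in MGJ2, with 0 higher and 0 lower (1.03). Clec4e, a receptor for damaged cells and fungi, had ratios of 0.391 and 0.591, and Clec4d, its partner, of 0.825 and 0.816. Of 11 adhesion genes, 10 had at least 50 UMIs in MGJ, with 0 higher and 1 lower (median ratio 1.18), and 11 in MGJ2, with 0 higher and 1 lower (1.11), with Icam1 the lower gene at 0.203 and 0.475.

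Most genes of the remaining lists were within 2-fold. Of 16 transcription factors of granulopoiesis, 12 had at least 50 UMIs in MGJ, with 0 higher and 1 lower (median ratio 0.936), and 12 in MGJ2, with 1 higher and 1 lower (0.896). Junb, an immediate-early factor also induced by tissue digestion, was the lower gene in both, with ratios of 0.255 (95% interval 0.202 to 0.317) in MGJ and 0.470 (0.438 to 0.505) in MGJ2. Of 10 dissociation stress genes, which include Junb, 9 had at least 50 UMIs in MGJ, with 0 higher and 3 lower (median ratio 0.604), and 8 in MGJ2, with 0 higher and 2 lower (0.709), and the part of digestion in these differences was not tested. Of 13 survival and death genes, 10 had at least 50 UMIs in MGJ, with 0 higher and 3 lower (median ratio 0.765), and 13 in MGJ2, with 0 higher and 2 lower (0.859). Bcl2a1b, of a family of near-identical copies, had ratios of 0.362 and 0.614. Txnip, a thioredoxin inhibitor, had ratios of 1.97 and 1.51 in retained members and of 1.04 and 0.909 over all members. No survival gene passed the limit upward in either library. Of 22 interferon-stimulated genes, 16 had at least 50 UMIs in MGJ, with 1 higher and 3 lower (median ratio 0.799), and 11 in MGJ2, with 1 higher and 0 lower (1.14). Of 6 NADPH oxidase subunits, 6 had at least 50 UMIs in MGJ, with 0 higher and 1 lower (median ratio 1.18), and 6 in MGJ2, with 0 higher and 0 lower (1.13). Of 17 glycolysis and hypoxia genes, 16 had at least 50 UMIs in MGJ, with 1 higher and 2 lower (median ratio 0.858), and 14 in MGJ2, with 0 higher and 0 lower (1.11). Of 11 S100 and alarmin genes, 10 had at least 50 UMIs in MGJ, with 3 higher and 0 lower (median ratio 1.75), and 8 in MGJ2, with 2 higher and 0 lower (1.69), the higher ones being stefins.

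**Figure D3:**
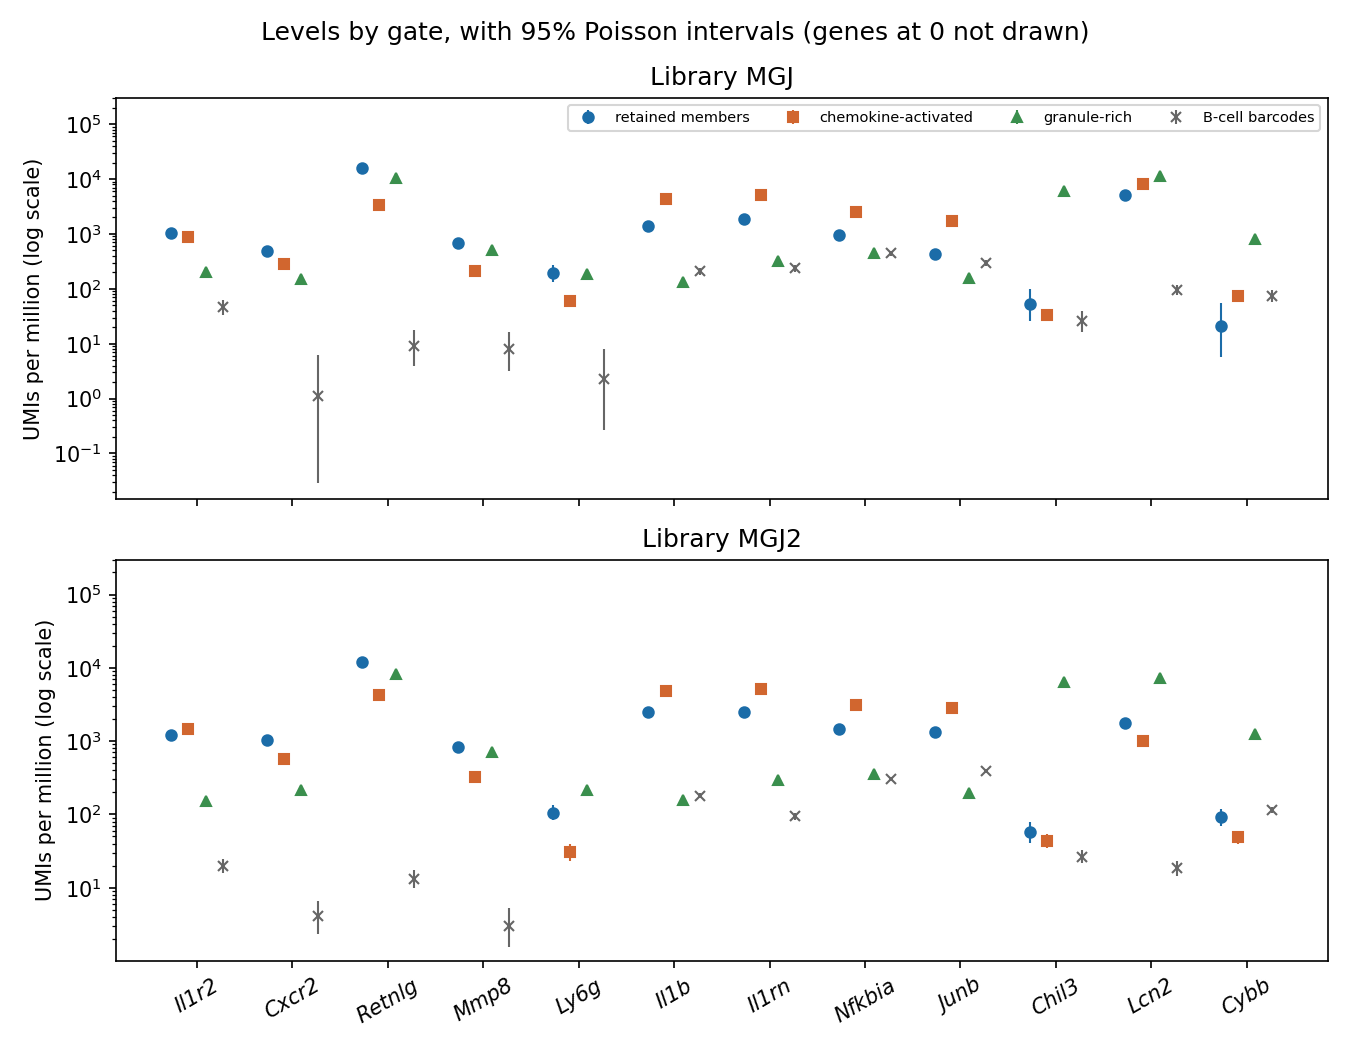
CPM (y axis, log scale) of 12 genes in retained members, screened chemokine-activated and granule-rich barcodes and B-cell barcodes, in MGJ (top) and MGJ2 (bottom), with 95% Poisson intervals of the counts. Retained members lie above chemokine-activated barcodes in Retnlg and Mmp8. There the pooled levels of retained members also exceed those of granule-rich barcodes, but the medians by barcode do not. Retained members lie between the other neutrophil gates in Il1b, Il1rn, Nfkbia and Junb. They are near the level of B-cell barcodes in Chil3 and Cybb, and whether B cells express these genes themselves was not tested.

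Levels were also read along the chemokine sum, over screened barcodes that met the other gates. In MGJ, Retnlg was at 16933 CPM below 25 chemokine UMIs per 10000, 15233 at 25 to 50, 9208 at 50 to 100, 4949 at 100 to 200 and 1077 at 1000 or more. In MGJ2 it was at 16268, 7938, 8215 and 3649 in the first 4 of these bins. The highest levels were thus in the lowest chemokine bin of both libraries. Cxcr2, of the rule, went from 473 to 155 over the 7 bins of MGJ and from 1153 to 197 over the 6 bins of MGJ2 with at least 20 barcodes. Il1r2 had no such course in MGJ, with 823 to 1034 CPM over its bins, but in MGJ2 it went from 1072 to 2019. Il1b was higher at the upper end of the sum than at its lower end, going from 1504 to 6539 in MGJ and from 2203 to 8808 in MGJ2. Nfkbia went from 935 to 4039 and from 1206 to 5131. In the bins on either side of the threshold of 50, Il1b stood at 1247 and 1855 in MGJ and at 2845 and 3001 in MGJ2.

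**Figure D4:**
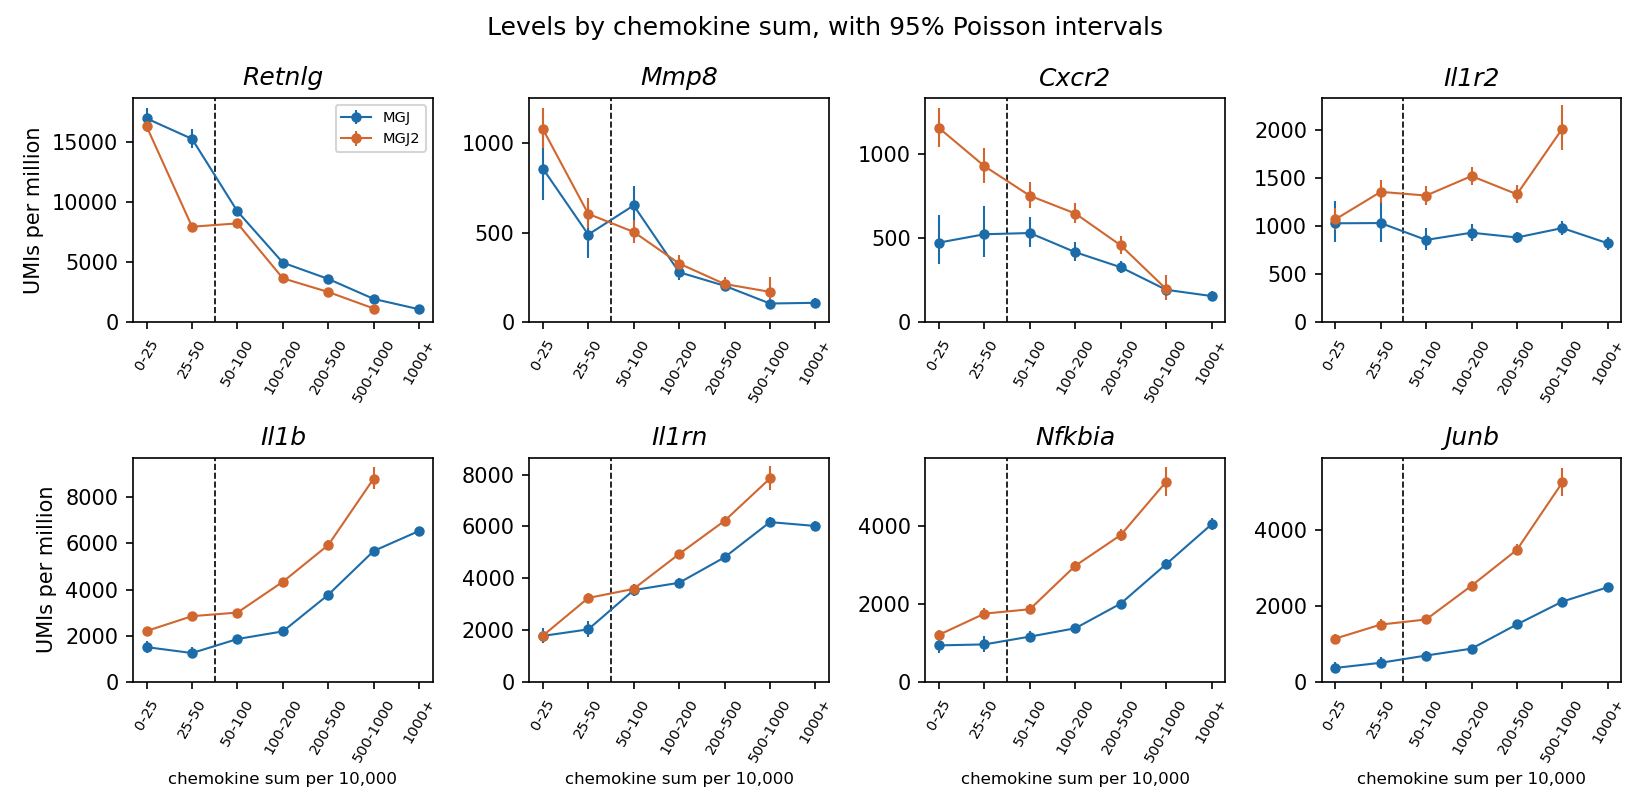
CPM (y axis) of 8 genes in barcodes grouped by their chemokine sum per 10000 UMIs (x axis), with 95% Poisson intervals, for MGJ and MGJ2, in bins of at least 20 barcodes. The dashed line marks the threshold of 50: Retnlg, Mmp8 and Cxcr2 are lower to the right of the range, Il1b, Il1rn, Nfkbia and Junb are higher there, and Il1r2 has no common course in the 2 libraries.

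Against granule-rich neutrophils, the less mature gate, retained members had little of early granule and cell-cycle transcripts and more of many cytokine transcripts. The granule-rich gate was also lower in the chemokines of the rule. The median sum of Ccl3, Ccl4 and Cxcl2 was 23.2 per 10000 in retained members and 4.03 in granule-rich barcodes of MGJ. In MGJ2 the medians were 26.3 and 0.842. The screen set deep and azurophil-high barcodes aside from members but left them in the granule-rich gate. It can therefore fix the low azurophil and cell-cycle levels in part. The main gene of this comparison was Mmp8. Over all members it stood at 298 and 499.9 CPM and in all granule-rich barcodes at 483 and 716, a ratio of 0.616 (95% interval 0.515 to 0.733) in MGJ and 0.698 (0.642 to 0.758) in MGJ2. In retained members it stood at 674 CPM in MGJ (95% interval 562 to 803) and 839 in MGJ2 (772 to 911), and the ratio was 1.35 (95% interval 1.11 to 1.62) in MGJ and 1.18 (1.08 to 1.28) in MGJ2. The direction of Mmp8 thus turned when the mixed and deep barcodes were set aside. With every barcode of all members weighted equally, the Mmp8 ratio was 0.454 in MGJ and 0.432 in MGJ2, also below 1. In retained members the pooled Mmp8 ratio was above 1, but the median by barcode was below that of granule-rich barcodes. No direction is therefore given for Mmp8. The pooled Retnlg ratio turned in the same way, from 0.640 and 0.864 over all members to 1.51 and 1.47 in retained members. By barcode, however, Retnlg was lower in retained members, with medians of 20.3 per 10000 against 118 in granule-rich barcodes of MGJ and 18.05 against 113 in MGJ2. Retnlg had no UMI in 39.1% and 27.2% of retained members and in 7.77% and 7.95% of the deeper granule-rich barcodes. The median Mmp8 was 0 against 3.15 per 10000 in MGJ and 2.78 against 11.8 in MGJ2.

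Of all genes with at least 50 UMIs in these 2 gates, 16.6% were at least 2-fold higher in retained members and 31.2% at least 2-fold lower in MGJ, and 15.5% and 44.1% in MGJ2. The median ratio over all genes was 0.784 and 0.581. The gates also differed in depth, at 1793 and 2398 UMIs against 6250.0 and 7750.0, and the part of depth was not tested. All 6 azurophil genes were lower in both libraries, which the screen on 4 of them (Mpo, Elane, Prtn3 and Ctsg) fixed in part. Of 17 specific and gelatinase granule genes, 17 had at least 50 UMIs in MGJ, with 3 higher and 10 lower (median ratio 0.443), and 17 in MGJ2, with 3 higher and 12 lower (0.384). The chitinase-related Chil3 stood at 53.5 and 57.3 CPM against 5996 and 6417, ratios of 0.00892 (95% interval 0.00428 to 0.0164) in MGJ and 0.00893 (0.00635 to 0.0122) in MGJ2. Lcn2 had ratios of 0.443 and 0.238 and Cd177 of 0.271 and 0.112, while the gelatinase Mmp9 stood higher (2.02 and 2.40), as did the antiprotease Slpi (6.79 and 6.86). Granule genes therefore differed from each other in direction. Of 12 cell-cycle genes, 12 had at least 50 UMIs in MGJ, with 0 higher and 11 lower (median ratio 0.169), and 12 in MGJ2, with 0 higher and 12 lower (0.0477). The screen on depth and azurophil genes, made on members alone, can lower these cell-cycle levels. Cell-cycle counts over all members are not given here.

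Of 10 chemoattractant receptors, 9 had at least 50 UMIs in MGJ, with 7 higher and 1 lower (median ratio 3.36), and 10 in MGJ2, with 9 higher and 1 lower (5.23). Cxcr2, of the rule, had ratios of 3.36 and 4.89, and Csf3r, also of the rule, of 7.73 and 6.99. Cxcr4 had ratios of 4.66 (95% interval 3.53 to 6.10) in MGJ and 6.20 (5.79 to 6.64) in MGJ2, and the leukotriene receptor Ltb4r1 was the 1 lower gene (0.203 and 0.154). Of 13 cytokine receptors, 12 had at least 50 UMIs in MGJ, with 8 higher and 0 lower (median ratio 2.63), and 13 in MGJ2, with 9 higher and 0 lower (4.30), among them Il1r2 with 5.11 (95% interval 4.30 to 6.05) in MGJ and 7.96 (7.25 to 8.73) in MGJ2. Of 16 Fc and pattern receptors, 15 had at least 50 UMIs in MGJ, with 6 higher and 1 lower (median ratio 1.91), and 15 in MGJ2, with 12 higher and 1 lower (3.05). These receptor counts include Cxcr2 and Csf3r, whose ratios the receptor gate raised in part, since 1 UMI is a larger share of a shallow barcode.

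Of 21 cytokines and mediators, 16 had at least 50 UMIs in MGJ, with 12 higher and 0 lower (median ratio 2.93), and 16 in MGJ2, with 12 higher and 1 lower (5.74). The chemokine sum was also higher in retained members, and its part in the cytokine and NF-kappaB feedback ratios was not tested. Il1b had ratios of 10.4 (95% interval 8.80 to 12.3) in MGJ and 16.2 (15.005 to 17.5) in MGJ2. Il1rn had ratios of 5.81 (95% interval 5.11 to 6.60) in MGJ and 8.64 (8.09 to 9.22) in MGJ2, so retained members lay between the granule-rich and the chemokine-activated gate in both. Csf1, the macrophage growth factor, stood at 241 and 260.1 CPM against 11.7 and 11.3. Spp1, osteopontin, stood at 7636 and 4834 against 2566 and 1579.5, and at 5967 and 12531 in cartilage-matrix barcodes, where it is also expressed. Chondrocyte markers also summed to more in retained members than in granule-rich barcodes. They were at 1600.0 against 790 CPM in MGJ and 232 against 80.4 in MGJ2. The part of free RNA in the Spp1 levels was not tested. Of 12 NF-kappaB feedback genes, 11 had at least 50 UMIs in MGJ, with 6 higher and 0 lower (median ratio 2.07), and 12 in MGJ2, with 11 higher and 0 lower (4.47). Of 16 transcription factors, 12 had at least 50 UMIs in MGJ, with 7 higher and 2 lower (median ratio 2.42), and 14 in MGJ2, with 9 higher and 4 lower (3.57), with Cebpb, a factor of emergency granulopoiesis, at 2.72 and 3.78 and Cebpe, the factor of secondary granule genes, at 0.0658 and 0.0366, the latter on 2 and 7 UMIs. Of 13 survival genes, 10 had at least 50 UMIs in MGJ, with 7 higher and 1 lower (median ratio 2.68), and 13 in MGJ2, with 9 higher and 0 lower (4.09), led by Bcl2a1b in MGJ2 at 16.5. The NADPH oxidase subunit Cybb was low, at 21.4 and 91.1 CPM against 801 and 1264, while the subunit Ncf1 had ratios of 0.928 and 1.10. The 10 highest ratios by the same ranking were those of Clec4n, Wfdc17 (25.1 and 152), H2-Q10, Csf1, Ifitm1 (18.4 and 33.9), Basp1, Atf3, Cyp4f18, Fnip2 and Marcks. The 10 lowest were Camp, Ltf and Ngp of the rule, Prtn3, Elane, Chil3, Serpinb1a, Krt81, Ms4a3 and Tuba1b.

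Retained members differed widely in Retnlg. In MGJ the lowest member held 0, the median 20.3 and the highest 561 Retnlg UMIs per 10000, and 34 of 87 held none. In MGJ2 the median was 18.05 and the highest 764, and 69 of 254 held none. A split at 50 per 10000, chosen after the values had been seen, gave 36 members above and 51 below in MGJ, and 91 and 163 in MGJ2. The Retnlg-high members were deeper, with median UMIs of 2734 against 1567 in MGJ and 3394 against 2217 in MGJ2.

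Several other transcripts were also higher in Retnlg-high members of both libraries, the genes named here having been chosen after their values were seen, without a count over a list. Mmp8 stood at 1158 against 60.7 CPM in MGJ and 1562 against 218 in MGJ2, ratios of 19.1 (95% interval 7.96 to 59.9) in MGJ and 7.15 (5.63 to 9.17) in MGJ2. The lysozyme gene Lyz2 had ratios of 5.31 (95% interval 3.67 to 7.90) in MGJ and 3.21 (2.84 to 3.64) in MGJ2, Wfdc21 of 2.93 and 5.69, Stfa1 of 18.9 and 6.66 and Ly6c2 of 6.31 and 5.89. S100a8, on which all members were chosen, had ratios of 1.99 and 3.36, and S100a9 of 1.81 and 3.598. The residual Ngp, a secondary granule gene of the rule, followed with 6.97 and 3.63. Not all granule genes followed, with Lcn2 at 0.961 and 4.98 and Chil3 at 0.789 and 0.652. Cxcr2, also of the rule, had ratios of 1.31 (95% interval 0.845 to 2.05) in MGJ and 1.24 (1.07 to 1.44) in MGJ2.

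Retnlg-low members held more of Il1r2 and Il1rn, the interleukin 1 decoy receptor and antagonist. Il1r2 stood at 632 against 1541 CPM in MGJ and 553 against 1789 in MGJ2, ratios of 0.410 (95% interval 0.300 to 0.556) in MGJ and 0.309 (0.260 to 0.366) in MGJ2. Il1rn had ratios of 0.461 and 0.461, Cxcr4 of 0.526 and 0.602 and Csf1 of 0.171 and 0.0409. Csf3r, of the rule, had ratios of 0.386 and 0.602. The receptor gate can raise its level in the shallower Retnlg-low members, since 1 UMI is a larger share of a shallow barcode. Ccrl2 (0.137 and 0.336), Junb (0.394 and 0.601) and Jun (0.288 and 0.359) were also lower in the Retnlg-high members. The median chemokine sum was 20.4 against 27.9 per 10000 in MGJ and 18.7 against 30.4 in MGJ2. Il1b was lower in the Retnlg-high members of MGJ, at 0.447, and near even in those of MGJ2, at 0.947. Since S100a8 and S100a9 fill part of each total, a lower level in CPM in the Retnlg-high members includes that share.

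**Figure D5:**
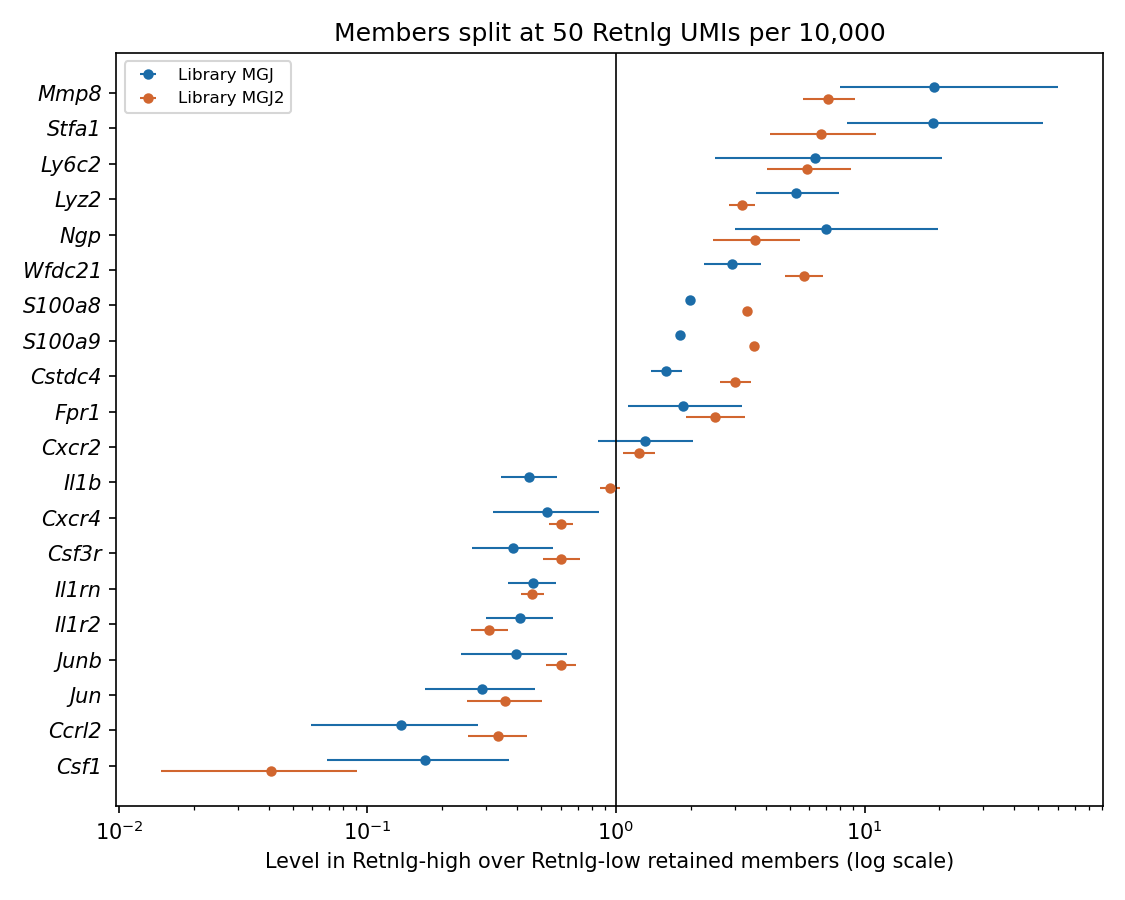
Ratio of the level in CPM (x axis, log scale) between Retnlg-high and Retnlg-low retained members for 20 genes (y axis), in MGJ and MGJ2, with exact 95% intervals of the counts. Mmp8, Stfa1, Ly6c2, Lyz2 and Ngp lie to the right of 1 and Il1r2, Il1rn, Ccrl2 and Csf1 to the left in both libraries, and Il1b lies left of 1 in MGJ with an interval across 1 in MGJ2.

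Splits by single transcripts in barcodes thinned to 1000 UMIs gave smaller groups. Retained members with a Mmp8 UMI numbered 16 of 82 (19.5%, interval 11.6 to 29.7) in MGJ and 94 of 250 (37.6%, 31.6 to 43.9) in MGJ2, against 0% and 0.126% of B-cell barcodes, and the unthinned shares were 32.2% and 51.6% and 0.694% and 1.38%. Retnlg stood at 30699 against 10724 CPM in MGJ and 19175 against 6859 in MGJ2 in members with and without a Mmp8 UMI, ratios of 2.86 (95% interval 2.66 to 3.08) in MGJ and 2.80 (2.67 to 2.93) in MGJ2. Il1b-positive members, 43 in MGJ and 168 in MGJ2, had Nfkbia at 2.30 (95% interval 1.66 to 3.22) in MGJ and 1.90 (1.63 to 2.23) in MGJ2 times the level of Il1b-negative ones. Their Junb ratios were 3.82 and 1.58, and their Mmp8 ratios 0.666 and 0.657. Retained members with a Cxcr4 UMI numbered 26 of 82 (31.7%, interval 21.9 to 42.9) in MGJ and 176 of 250 (70.4%, 64.3 to 76.0) in MGJ2. B cells express Cxcr4 themselves, so the reference for it is the cartilage-matrix barcodes, with 0.764% and 2.96% and median depths of 20572 and 27953 UMIs before thinning. Unthinned, the Cxcr4 shares were 44.8% and 90.9% in retained members and 7.80% and 29.7% in cartilage-matrix barcodes. Il1r2 was higher in members with a Cxcr4 UMI, at 1.95 (95% interval 1.44 to 2.64) in MGJ and 1.51 (1.29 to 1.78) in MGJ2, and Lcn2 lower, at 0.469 and 0.646.

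Interferon-stimulated transcripts were sparse. Of the 9 genes named for this split, Mx1 was not analysed here, and the other 8 gave at least 1 UMI in 13 of 82 (15.9%, interval 8.72 to 25.6) in MGJ and 51 of 250 (20.4%, 15.6 to 25.9) in MGJ2 after thinning, against 16.2% and 16.1% of chemokine-activated, 2.92% and 2.30% of granule-rich and 2.87% and 0.630% of B-cell barcodes. Members with 3 or more such UMIs numbered 1 in MGJ and 8 in MGJ2. In those of MGJ2, Retnlg stood at 889.6 CPM, against 13011 in the 199 members without a UMI, resting on 17 Retnlg UMIs.

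Between the libraries, values of retained members are set side by side only. Genes with the largest ratio toward MGJ were the stefins Csta2 (1027 and 27.9 CPM in MGJ and MGJ2), Cstdc5, Stfa2 and Stfa3, the heme oxygenase Hmox1 (1873 and 335), Ifitm6, Cxcl3 and the matrix genes Fn1, Col2a1 and Sparc. The pooled levels of the matrix genes were higher in B-cell barcodes of MGJ than in its retained members, with Col2a1 at 2478 against 744. Genes with the largest ratio toward MGJ2 included the T cell chemokine Ccl5 (5.35 and 216), AW112010, Lrif1, Wipf2, Rgs1 (26.8 and 247), the surface protein Cd101 (10.7 and 94.0), Cpeb4, Igf2r and Gm26917. Ccl5 stood at 2.24 and 141 in B-cell barcodes. Cd101, which marks the last step of neutrophil maturation, stood at 1.12 and 0.760 in B-cell barcodes and at 5.01 and 45.5 in chemokine-activated neutrophils. Each library is 1 sample, and day, mice and library cannot be told apart.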

How the data were processed

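The authors deposited filtered UMI count matrices of 32285 genes, 1 per library and not normalized, and the file headers name Cell Ranger 4.0.0. The submitters' processing notes name GRCm38, Cell Ranger and Seurat. Counts were read as deposited. The members, gene lists and splits were chosen with earlier results of these data known. Neither label gives a day, so libraries were kept apart and no test was run. A level is the summed UMIs of a gene over all UMIs of a gate, per 1000000 (CPM), with an exact Poisson interval. Ratios have conditional binomial and shares Clopper-Pearson intervals (95%), for counting error only. A gate with 0 UMIs was set to 3 UMIs for list counts and rankings. Shares were taken after thinning to 1000 UMIs, leaving out shallower barcodes (5 retained members in MGJ and 4 in MGJ2). Doublets were called with Scrublet (scanpy 1.11.5) and kept, except in an alternative, and calls made up 1.04% and 2.84% of kept barcodes against 10.8% and 6.24% expected. Named genes were the rule and list genes and, by size in both libraries, the 15 highest and 5 lowest against all other barcodes, the 10 at each end against each neutrophil gate, and the 10 at each end between libraries, of which some genes are not reported here. The ratio script was tested on simulated data. Python 3.11.15, numpy 2.4.6, scipy 1.17.1, pandas 2.3.3 and matplotlib 3.10.9 were used.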

Additional observations from a re-analysis of the deposited data

How the results depend on the processing

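No paired analysis was possible because the labels put neither library in a group and each library is 1 sample, so no replicate could be left out and no call could be lost. Of 720 values recomputed under 13 alternatives, or with mixed and deep barcodes set aside (chosen after seeing the data), 419 stayed within the counting interval or 1.5 times the count, 292 moved further and 9 reversed. Values below are over all members unless barcodes were set aside. The share of kept barcodes was 0.423% in MGJ and 1.83% in MGJ2 at a chemokine threshold of 25, and 1.78% and 6.29% at 100. It was 0.557% in MGJ with 2 receptor UMIs, 0.646% in MGJ with mixed and deep barcodes set aside, and in MGJ2 3.07% with S100a8 and S100a9 at 200 and 4.55% with Csf1r UMIs allowed. Il1b over chemokine-activated barcodes stayed below 1 in every alternative. In MGJ it moved to 0.268 with 2 receptor UMIs, 0.316 with S100a8 and S100a9 at 200, 0.281 at a chemokine threshold of 100, 0.387 with barcodes weighted equally and 0.311 with barcodes set aside. In MGJ2 it moved to 0.326, 0.210 (threshold 25), 0.340 (threshold 100), 0.319 (granule threshold 10), 0.482 (equal weights) and 0.521 (set aside). Mmp8 over granule-rich barcodes reversed to 1.35 in MGJ and 1.18 in MGJ2 with barcodes set aside, and Retnlg to 1.51 and 1.47. Mmp8 moved in MGJ to 0.964 (S100a8 and S100a9 at 200), 0.770 (threshold 25), 0.737 (threshold 100), 0.488 (Csf1r allowed), 0.494 (totals without S100a8 and S100a9) and 0.454 (equal weights), and in MGJ2 to 0.600 (2 receptor UMIs), 0.594 (totals without S100a8 and S100a9) and 0.432 (equal weights). Over chemokine-activated barcodes, Il1r2 in MGJ reversed from 0.579 to 1.14 with equal weights and 1.15 with barcodes set aside, and Txnip in MGJ2 from 0.909 to 1.20 (threshold 100), 1.46 (equal weights) and 1.51 (set aside). Counts of genes past 2-fold against chemokine-activated barcodes were 1819 in MGJ and 1671 in MGJ2. They became 661 and 546 for genes with at least 200 UMIs. In MGJ they became 1047 with 2 receptor UMIs and 1143 with S100a8 and S100a9 at 200. With barcodes set aside they were 644 of 3371 genes in MGJ and 216 of 3372 in MGJ2. Against granule-rich barcodes the counts were 1239 and 1701, and became 375 and 826 for genes with at least 200 UMIs. They became 742 in MGJ with 2 receptor UMIs, and 4108 of 6893 genes in MGJ2 with barcodes set aside. The genes with enough UMIs to be counted differed between alternatives, and their number is not given for the other counts. These counts are therefore not to be compared as shares. The shares of MGJ2 members with a UMI were 55.8% for Il1r2 and 61.9% for Il1b at 1000 UMIs, and 69.4% and 72.7% at 2000, where more UMIs are counted. Apart from this and the count of genes at 200 UMIs, the causes were not tested. Depth limits every share, with a median of 1969.5 UMIs per member in MGJ and 2579 in MGJ2.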
